A study of Homo sapiens with 8 samples.

Results

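To investigate how the ATF4 pathway and the unfolded protein response behaved after ectopic expression of miRNAs, 39 genes were followed across 8 two-colour Agilent arrays. The 39 genes were listed by function, with earlier results of these data known, and all 39 were found by name among the 43317 gene names on the array. They comprised 8 transcription factors and regulators, 6 amino acid and one-carbon enzymes, 3 other ATF4 targets, 7 amino acid transporters, and 15 endoplasmic reticulum (ER) chaperones and unfolded protein response genes. Each array set the RNA of cells transfected with 1 miRNA (Cy5) against RNA from mock cells of that line (Cy3), and each miRNA had 1 array. HCT116 cells, a colon cancer line, received 1 strand of miR-139 (miR-139-5p or miR-139-3p) or of miR-143 (miR-143-5p or miR-143-3p). PANC-1 cells, a pancreatic cancer line, received a guide strand (miR-30c-5p or miR-30a-5p) or a passenger strand (miR-30c-2-3p or miR-30a-3p). Mock cells received no precursor, so the act of delivering a small RNA and the sequence of that RNA cannot be told apart on these arrays. No dyes were swapped, so dye and treatment cannot be told apart either. The time of harvest is not given in the sources used here.

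ATF4 is a transcription factor whose protein is made when kinases of the integrated stress response phosphorylate the initiation factor eIF2. It turns on genes for amino acid synthesis, amino acid uptake and tRNA charging. The unfolded protein response has further branches, run by the ER sensors IRE1 (gene *ERN1*) and ATF6, and by the factor XBP1, whose mRNA IRE1 splices. These branches mainly turn on ER chaperones and the machinery that removes misfolded proteins.

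The mature miRNAs are shown because their seeds (bases 2 to 8, in capitals) group the arrays. Only the miR-30 guide strands, miR-30c-5p and miR-30a-5p, shared a seed. The sequences were those of RefSeq (GRCh38.p14), where miR-139-3p lies at chr11:72615066-72615088 and miR-30c-2-3p at chr6:71376964-71376985, both on the minus strand.
miR-139-5p: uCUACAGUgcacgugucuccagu
miR-139-3p: uGGAGACGcggcccuguuggagu
miR-143-5p: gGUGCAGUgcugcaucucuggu
miR-143-3p: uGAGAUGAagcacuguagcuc
miR-30c-5p: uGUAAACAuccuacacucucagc
miR-30c-2-3p: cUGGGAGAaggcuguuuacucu
miR-30a-5p: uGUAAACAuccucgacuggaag
miR-30a-3p: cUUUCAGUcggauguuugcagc

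As a check of the labels, genes whose array probe held a heptamer complementary to the seed of the transfected miRNA were compared with the other detected genes. Their median log2 ratio was lower by 0.02 to 0.08 on 7 arrays (differences from -0.0848 to -0.0208). It was higher by 0.0226 on the array labelled miR-143-3p, close in size to the -0.0208 on the miR-139-3p array. No spread was computed for these small differences, so the check cannot decide whether any label is right. The array labelled miR-143-3p is called by its label throughout. None of the 39 genes had such a heptamer in its own probe (0 of 39). The heptamers cover only the probe and not the whole transcript.

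The members' promoters (250 bases before to 50 after the start of transcription) are shown where they held a textbook stress element, because these letters split the list without using any array value. RefSeq held a promoter for 35 of the 39 genes, and none was given for *NUPR1*, *PSPH*, *SHMT2* and *SLC7A11*. Both strands were searched, and the element is in capitals below. The genes were listed by function as members of these stress pathways, so shares above those of all promoters are no independent evidence. The ER stress element (ERSE, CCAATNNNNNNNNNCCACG) was found in 5 member promoters, those of *HSPA5*, *XBP1*, *HSP90B1*, *CALR* and *CRELD2* (14.3% of 35, against 0.12% of 15843 promoters of protein-coding genes).
HSPA5, ERSE: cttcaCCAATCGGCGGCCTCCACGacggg
XBP1, ERSE: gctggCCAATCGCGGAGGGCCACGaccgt
HSP90B1, ERSE: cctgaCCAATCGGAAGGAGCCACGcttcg
CALR, ERSE on the other strand: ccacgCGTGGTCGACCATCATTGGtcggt
CRELD2, ERSE on the other strand: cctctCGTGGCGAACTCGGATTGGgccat

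The related ERSE-II (ATTGGNCCACG) was found in 3 member promoters (8.57%, against 0.0757% of all), of *HERPUD1*, *HYOU1* and *SDF2L1*. The C/EBP-ATF response element (CARE, TGATGNAA), a site type bound by ATF4 with C/EBP partners, was found in 6 (17.1%, against 2.53%), of *ASNS*, *ATF3*, *CHAC1*, *HERPUD1*, *SLC3A2* and *SLC7A1*. The UPRE core (TGACGTGG) was found in 1 (2.86%, against 0.833%), of *HYOU1*, where it overlapped an ERSE-II.
HERPUD1, ERSE-II: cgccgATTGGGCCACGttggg
ASNS, CARE: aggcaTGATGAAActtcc
SLC7A1, CARE: actgcTGATGAAAcctgg
CHAC1, CARE on the other strand: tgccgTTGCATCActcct

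The element of *HSPA5* lies at chr9:125241391-125241409 and that of *ASNS* at chr7:97872469-97872476, both on the minus strand of GRCh38.p14. A match is a run of letters and was not tested as a binding site.

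Of the 39 genes, 37 were detected on all 8 arrays, where detected means well above background in at least 1 channel. *VLDLR*, a lipoprotein receptor, was detected on 3 arrays and *SLC1A4*, a neutral amino acid transporter, on the 4 PANC-1 arrays. The share of spots well above background ran from 44.1% to 45.3% for Cy3 and from 45.8% to 51.4% for Cy5, and no spot was saturated. Because each miRNA had 1 array, no test was possible for these ratios and a fixed size of 2-fold (a log2 ratio of 1) was used. As a measure of spread, the mock RNA of the miR-139 arrays was set against that of the miR-143 arrays, and likewise miR-30c against miR-30a. The size of this difference had a median of 0.25 (log2) over the members in HCT116 and 0.12 in PANC-1. Of all detected genes, 1.08% were at least 2-fold apart between the HCT116 mock RNAs and 0.212% between the PANC-1 mock RNAs. Of the members, 1 (*ATF3*) was so in HCT116 and 0 in PANC-1.

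Over the 8 arrays, 18 of the 39 genes were at least 2-fold from mock on at least 1 array and 21 never were. That is 46.2% of the members, beside 11.1% of the 24880 genes detected on at least 1 array, many of which were detected on fewer arrays than the members. There were 16 gene-array values at least 2-fold lower and 7 at least 2-fold higher, and the shares of all detected genes are given array by array below. While 0 genes were lower on 1 array and higher on another, only *ATF3*, *SHMT2*, *MTHFD2* and *DNAJB9* passed 2-fold on more than 1 array. The same was not counted over all genes, so no common direction can be read from it. All 23 values were larger than the difference between the mock RNAs of the line for the same gene. The 2-fold cut fixed this in advance and it is no support for the values. Only *ATF3* in HCT116 had mock RNAs at least 2-fold apart, and none of the 23 values was of *ATF3* in HCT116. A ratio in bulk RNA does not tell fewer expressing cells from less RNA per cell.

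**Figure D1:**
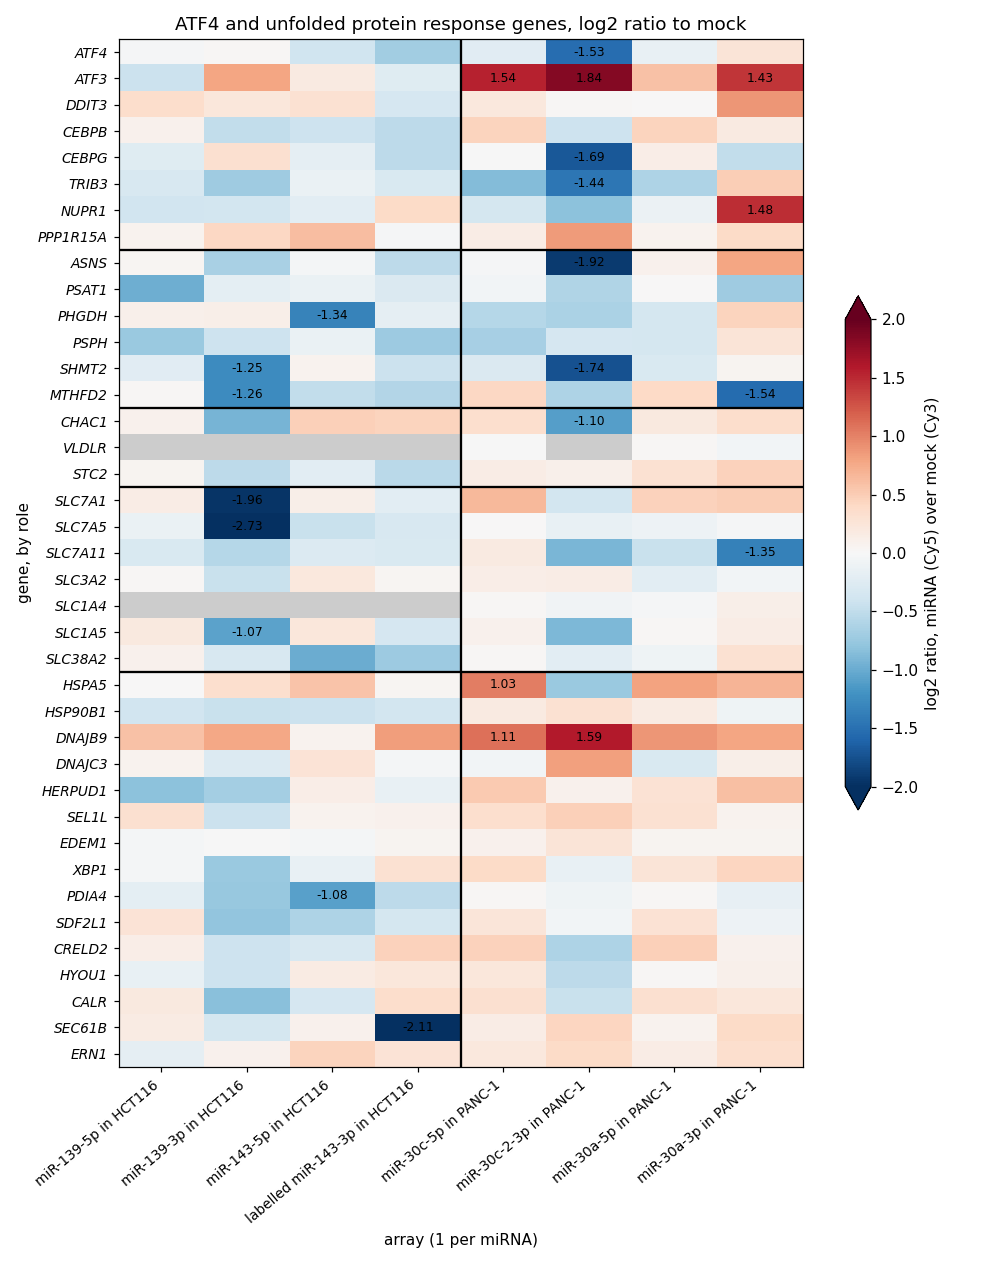
Log2 ratio of miRNA-transfected (Cy5) over mock (Cy3) cells for each of the 39 genes (rows, by role) on each of the 8 arrays (columns, HCT116 left of the black line). Colours run from -2 (blue) to 2 (red), values at least 2-fold from mock are printed, and grey marks an undetected gene; 8 of the 23 printed values stand in the miR-30c-2-3p column and 5 in the miR-139-3p column.

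The miR-139 strands gave different numbers of members past 2-fold, a difference that 1 array each does not allow to be tested. On the miR-139-5p array, 0 of 37 detected members were 2-fold lower (0.201% of all detected genes) and 0 were 2-fold higher (0.0587%). The members lay between -0.98 (*PSAT1*, a serine synthesis enzyme) and 0.59 (*DNAJB9*, a co-chaperone of HSPA5), and had a median of 0.02 (-0.06 with the mean of the mock RNAs). After miR-139-3p, 5 of 37 members were 2-fold lower (2.82% of all) and 0 were higher (2.11%). Their median was -0.42, with 28 of 37 below 0, whereas 47.7% of all detected genes on that array lay below 0 and the median of all was 0.01.

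After miR-139-3p the amino acid transporters were low: all 6 detected were below 0, and their median was -0.82. The median of *CHAC1* and *STC2* was -0.72, and it was lower than that of the transporters under 3 of the 6 alternative settings (-1.57 against -0.97 by the scanner's ratio). *SLC7A5* encodes the light chain of the large neutral amino acid transporter, which imports leucine. Its log2 ratio was -2.73 (6.64-fold lower, the 7th lowest of 20708 detected genes), with a level of 8.11 (log2 intensity) in the transfected and 10.8 in the mock channel. On the other 7 arrays its ratio lay between -0.45 and 0.00, so that the low level was seen in a single channel. Its mock RNAs in HCT116 differed by 0.43. *SLC3A2*, the heavy chain with which SLC7A5 pairs, had a ratio of -0.45 on the same array, and between -0.20 and 0.21 on the others.

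*SLC7A1*, a transporter of arginine and lysine, had a ratio of -1.96 on the miR-139-3p array (3.89-fold lower, 36th lowest), which was -2.52 without background correction and -3.07 by the scanner's ratio, with levels of 6.54 and 8.50 in the transfected and mock channels. Its ratios on the other HCT116 arrays were 0.15, 0.12 and -0.22, and those in PANC-1 were 0.65 and 0.47 with the guide strands (miR-30c-5p, then miR-30a-5p) and -0.37 and 0.49 with the passenger strands miR-30c-2-3p and miR-30a-3p. *SLC1A5*, a glutamine transporter, was at -1.07 with the mock of its own array and at -0.95 with the mean of the HCT116 mock RNAs. *SLC7A11*, the cystine-glutamate exchanger, was at -0.57 and *SLC38A2*, another glutamine transporter, at -0.32. Every detected transporter was thus below its mock on this array, 3 of them by 2-fold or more. *SLC38A2*, however, was at -0.08 by its other probe, and at -0.08 with the mean of the HCT116 mock RNAs. These mock RNAs differed by 0.36 for *SLC38A2*.

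The enzymes were also low after miR-139-3p, 5 of 6 being below 0 around a median of -0.53. The mitochondrial one-carbon enzymes *MTHFD2* and *SHMT2* had ratios of -1.26 and -1.25. *MTHFD2* was read by 10 spots on this array, whose SD was 0.05. *ASNS*, which makes asparagine, was at -0.64, and the serine synthesis enzymes *PHGDH*, *PSAT1* and *PSPH* were at 0.12, -0.20 and -0.41. *ATF4* mRNA itself was at 0.02 and *DDIT3* (CHOP) at 0.23. ATF4 protein was not measured, and any part of ATF4 in the low enzymes and transporters was not tested. Of the 15 ER genes, 12 were below 0 (median -0.41), and none reached 2-fold. The lowest of them were *CALR* at -0.84, *SDF2L1* at -0.78, and *XBP1* and *PDIA4* at -0.75 each, while *HSPA5* was at 0.33 and *DNAJB9* at 0.78.

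**Figure D2:**
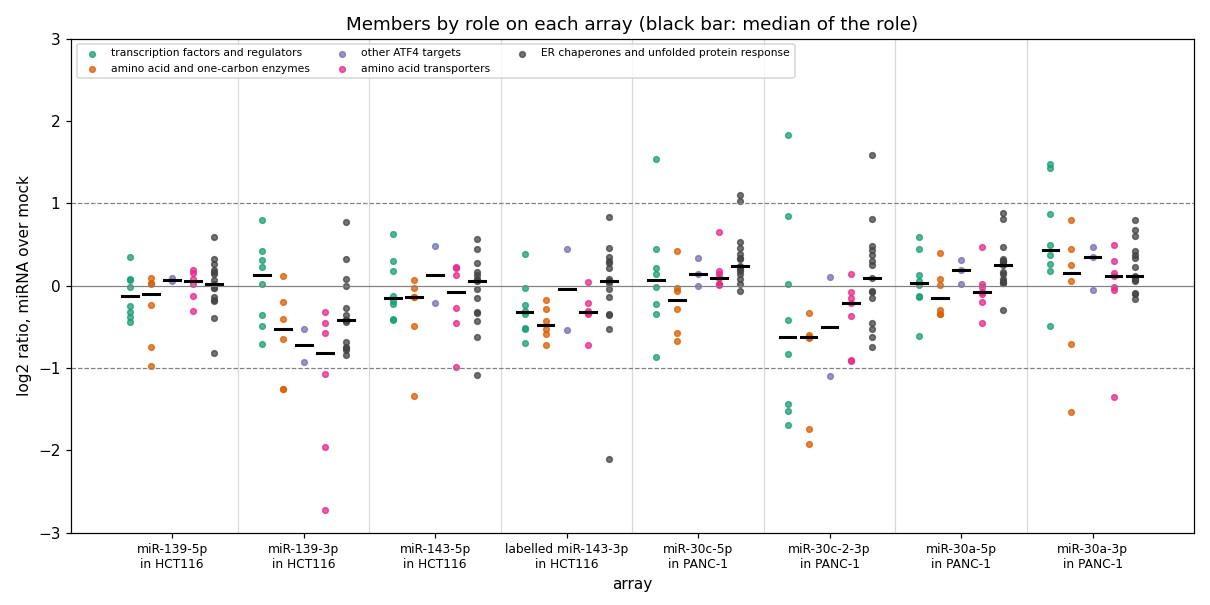
Log2 ratio to mock (vertical axis) of every detected member on each array (horizontal axis), 1 point per gene, coloured by role; black bars are the median of the role and dashed lines mark 2-fold. On the miR-139-3p array the transporters have a median of -0.82, and on the miR-30c-2-3p array the regulators (-0.62) and enzymes (-0.63) lie low while the ER genes lie around 0 (median 0.09).

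The regulators had no common direction on the miR-139-3p array. Their median there was 0.13 with the mock of the same array and -0.39 with the mean of the HCT116 mock RNAs, so its sign depended on the mock used. The medians of the enzymes, transporters and ER genes were below 0 under all 6 alternative settings tried. Dropping the filter on dim probes could move only the transporters' median, since every enzyme and ER gene was detected.

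On the miR-143-5p array, 2 of 37 members were 2-fold lower (1% of all detected genes) and 0 were higher (0.356%). *PHGDH*, the first enzyme of serine synthesis, was at -1.34 (61st lowest of 20498), with 7.42 in the transfected and 8.76 in the mock channel. The mock RNAs of HCT116 themselves differed by 0.91 for *PHGDH*. *PDIA4*, an ER disulfide isomerase, was at -1.08, and it was at -0.83 with centring on the median and -0.87 with the mean of the mock RNAs. *SLC38A2* was at -0.99 by its brighter probe and -0.13 by its other probe. The other serine enzymes *PSAT1* and *PSPH* were at -0.14 each. *ATF4* was at -0.40, *DDIT3* at 0.30, *ASNS* at -0.03, *XBP1* at -0.15 and *HSPA5* at 0.57. The median of the members was -0.13 and turned to 0.16 with centring on the median, so no direction can be given for the list on this array.

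On the array labelled miR-143-3p, 1 of 37 members was 2-fold lower (0.925%) and 0 were higher (0.517%). That gene was *SEC61B*, a subunit of the channel through which new proteins enter the ER, at -2.11 (4.30-fold, the 4th lowest of 20107). Its level was 10.5 in the transfected channel and 12.6 in the mock, and its ratio on the other 7 arrays lay between -0.36 and 0.43. A low *SEC61B* was thus seen on 1 array only, among genes that stayed within 2-fold of mock. All 6 enzymes were below 0 there (from -0.72 for *PSPH* to -0.17 for *PHGDH*, median -0.48). *ATF4* was at -0.69, *DDIT3* at -0.34, *ASNS* at -0.53, *XBP1* at 0.30 and *HSPA5* at 0.03. The members' median was -0.28, beside 0.01 for all detected genes, of which 48.6% lay below 0.

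In PANC-1, the widest movement of the list was on the miR-30c-2-3p array, where 6 of 38 detected members were 2-fold lower (4.14% of all detected genes) and 2 were 2-fold higher (1.71%). The 6 lower genes were *ATF4*, 2 other regulators, 2 enzymes and *CHAC1*. *ATF4*, read by a probe at chr22:39918577-39918636 (hg19), was at -1.53 (2.88-fold lower), with 11.8 in the transfected and 13.3 in the mock channel. Its ratios were -0.23 on the miR-30c-5p array, -0.14 on the miR-30a-5p array and 0.27 on the miR-30a-3p array, and between -0.69 and 0.02 in HCT116. No other array put *ATF4* 2-fold from mock, except that centring on the median put it at 1.17 on the miR-30a-3p array. *CEBPG*, a dimer partner of ATF4, was at -1.69, with 8.48 and 10.2 in the channels, and between -0.52 and 0.32 elsewhere. *TRIB3*, a pseudokinase induced by ATF4, was at -1.44, and was below 0 on 7 of the 8 arrays.

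All 6 enzymes were below 0 on the miR-30c-2-3p array, with a median of -0.63, where 47.3% of all detected genes lay below 0. *ASNS* was at -1.92 (3.79-fold lower, 95th lowest of 20703), with 10.6 and 12.6 in the channels; the PANC-1 mock RNAs differed by 0.64 for this gene, the largest such difference after *ATF3*. *ASNS* was at -0.02 on the miR-30c-5p array, 0.08 on the miR-30a-5p array and 0.79 on the miR-30a-3p array. *SHMT2* was at -1.74, with 8.65 and 10.4, and its mock RNAs differed by 0.11. *SHMT2* was therefore 2-fold lower in HCT116 with miR-139-3p and in PANC-1 with miR-30c-2-3p. *MTHFD2*, *PHGDH* and *PSAT1* were at -0.62, -0.63 and -0.60. The transporters had 6 of 7 below 0 (4 of 7 with centring on the median), the lowest being *SLC7A11* at -0.91 and *SLC1A5* at -0.90, and *SLC7A5* was at -0.15.

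*CHAC1*, which degrades glutathione, was at -1.10 by its brighter probe and -0.21 by its other probe, and its median over both did not reach 2-fold (-0.65). *DDIT3* was at 0.02 on this array and *ATF4* at -1.53. *PPP1R15A* (GADD34), which recruits the phosphatase of eIF2, was at 0.85 and *NUPR1*, a stress-induced nuclear protein, at -0.83.

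The ER genes lay on both sides of mock on the miR-30c-2-3p array. Of 15, 7 were below 0 and 8 above (median 0.09). *DNAJB9* was at 1.59 (3.00-fold higher, 72nd highest), with 9.59 in the transfected channel, and *DNAJC3*, another co-chaperone of HSPA5, at 0.81. *HSPA5*, the main ER chaperone (BiP), was at -0.74, the lowest of the ER genes, with *CRELD2* at -0.62, *HYOU1* at -0.52 and *CALR* at -0.45. *XBP1* was at -0.15, close to the 0.12 between its mock RNAs. The probe reads total *XBP1* transcript and not its splicing.

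**Figure D3:**
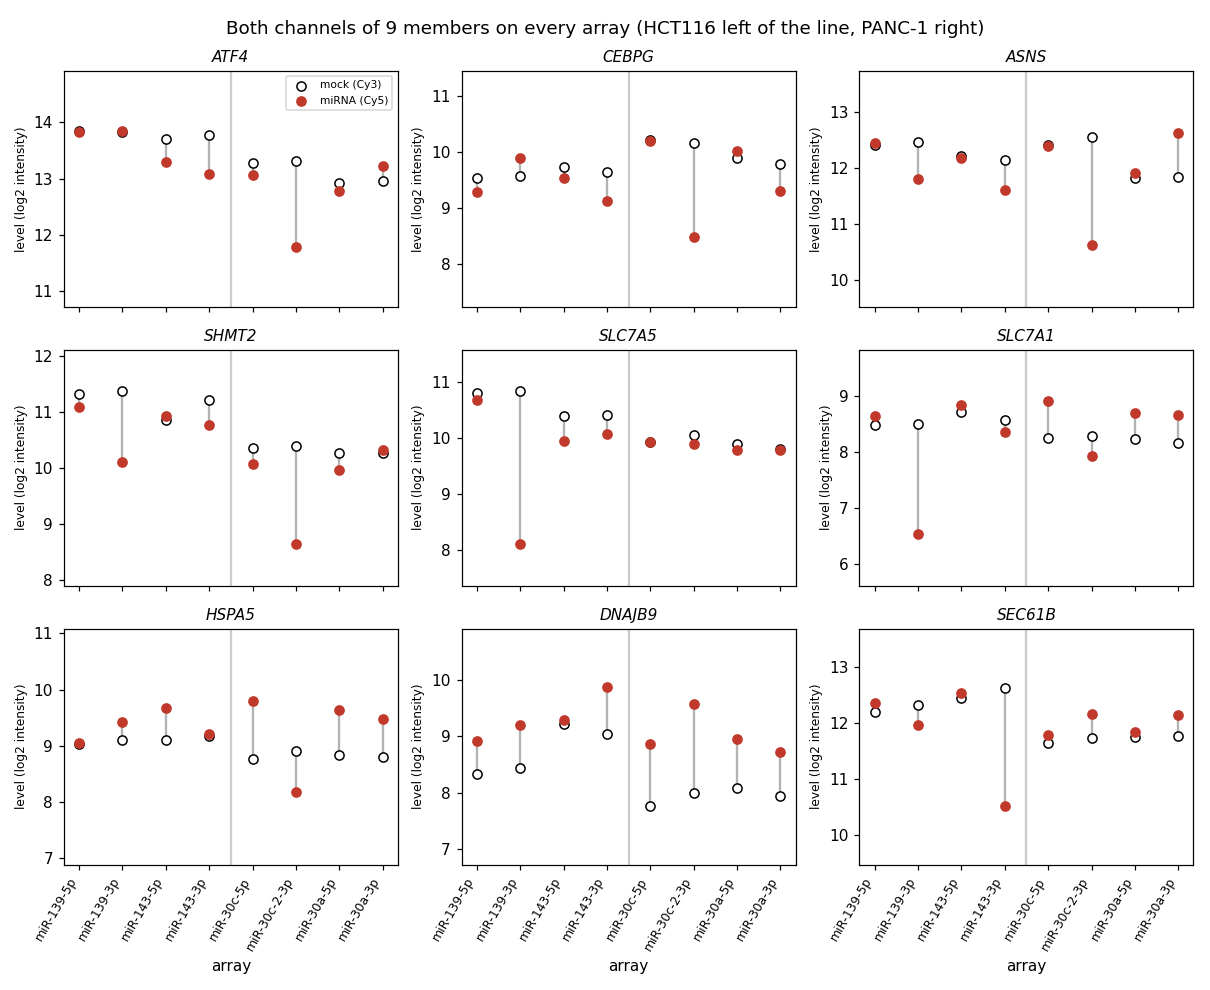
Level (log2 intensity) of 9 members in the miRNA-transfected (red) and mock (open) channel of each array, with HCT116 left of the grey line; each panel spans the same height, and levels are not comparable between genes. *SLC7A5* and *SLC7A1* drop on the miR-139-3p array, *ATF4*, *CEBPG* and *ASNS* on the miR-30c-2-3p array, *SHMT2* on both and *SEC61B* on the array labelled miR-143-3p, while *DNAJB9* is above mock on all 8.

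The guide strands miR-30c-5p and miR-30a-5p, which share a seed, left *ATF4* and its enzymes within 2-fold of mock. With miR-30c-5p, 0 of 39 members were 2-fold lower (0.445% of all detected genes) and 3 were higher (0.747%). With miR-30a-5p, 0 were lower (0.263%) and 0 were higher (0.306%). The ER genes lay slightly above mock on both arrays, with 14 of 15 above 0 on each and medians of 0.24 (miR-30c-5p) and 0.26 (miR-30a-5p). Of all detected genes, 46.2% and 46.0% lay below 0. The ER medians stayed above 0 under all 6 alternative settings, although dropping the filter on dim probes could not change them. On the miR-30a-5p array the count above 0 was 12 of 15 with the mean of the PANC-1 mock RNAs. *HSPA5* was at 1.03 (miR-30c-5p) and 0.81 (miR-30a-5p), and its PANC-1 mock RNAs differed by 0.01. *DNAJB9* was at 1.11 and 0.88, and *HERPUD1*, which helps clear misfolded proteins, at 0.53 and 0.29. With the mean of the PANC-1 mock RNAs, *HSPA5* and *DNAJB9* on the miR-30c-5p array were at 0.97 and 0.93, just under 2-fold. *TRIB3* was at -0.87 and -0.61. *XBP1* was at 0.39 and 0.26, *DDIT3* at 0.22 and 0.01, and *ATF4* at -0.23 and -0.14.

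The 8 genes with an ERSE or ERSE-II were above 0 on both guide strand arrays, 8 of 8 on each, with medians of 0.36 and 0.29. With the mean of the PANC-1 mock RNAs, 7 of 8 were above 0 on the miR-30a-5p array. On the miR-139-3p array 7 of the 8 were below 0, around a median of -0.56. On the miR-30c-2-3p array 6 of the 8 were below 0 (median -0.30), but the median was 0.03 with centring on the median. The 6 genes with a CARE, of which *HERPUD1* also has an ERSE-II, were 5 of 6 below 0 on the miR-139-3p array (median -0.66) and 5 of 6 above 0 on the miR-143-5p array, both guide strand arrays and the miR-30a-3p array (medians from 0.15 to 0.55). They were 3 and 3 on the miR-30c-2-3p array, from -1.92 (*ASNS*) to 1.84 (*ATF3*). On the miR-139-5p array the ERSE genes were 4 below and 4 above 0, and the CARE genes 2 and 4. Of the members whose promoter held none of these elements, 15 of 22 were above 0 on each guide strand array (medians 0.06 and 0.03). On the miR-139-3p array 13 of 20 detected were below 0 (median -0.29), and on the miR-143-5p array 8 of 20 were above 0. They were 16 of 22 above 0 on the miR-30a-3p array. All genes with an ERSE or ERSE-II are also among the 15 ER genes. Any link between an element and a ratio was not tested.

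On the miR-30a-3p array, 2 of 39 members were 2-fold lower (1.1% of all detected genes) and 2 were 2-fold higher (0.372%). The split depended on the scaling, since centring on the median gave 0 lower and 16 higher, with a median of all detected genes of 0.30, and 0.208% of all lower against 8.82% higher. *MTHFD2* was at -1.54 (2.90-fold lower) and *SLC7A11* at -1.35 (2.55-fold lower), and with that centring at -0.84 and -0.82. *NUPR1* was at 1.48 (2.80-fold higher, 9th highest of 22063), with 11.6 in the transfected and 10.1 in the mock channel, and between -0.83 and 0.38 on the other arrays. It is dim in HCT116 (mock levels 6.39 and 6.59), where the scanner's ratio put it at -1.41 (miR-139-5p) and -1.34 (miR-139-3p). *MTHFD2* was 2-fold lower on this array and on the miR-139-3p array, and its 10 spots on this array had an SD of 0.07. *ASNS* was at 0.79, *DDIT3* at 0.88, *ATF4* at 0.27, *XBP1* at 0.43 and *HSPA5* at 0.68. *SHMT2* was at 0.05, *PSAT1* at -0.70 and *CEBPG*, the 1 regulator below 0, at -0.49, while 4 of 6 enzymes and 7 of 8 regulators were above 0 (medians 0.15 and 0.43). The members' median was 0.23, with 29 of 39 above 0. Of all detected genes on this array, 44.2% lay below 0.

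*ATF3*, a stress-induced transcription factor, was 2-fold higher on 3 PANC-1 arrays, at 1.54 (miR-30c-5p), 1.84 (miR-30c-2-3p) and 1.43 (miR-30a-3p), and at 0.59 with miR-30a-5p. These values came from the brightest of its 4 probes. The other 3 probes lay between -0.03 and 0.45 on those 3 arrays, and the median over the probes was 0.34, 0.36 and 0.40. In HCT116 its ratios were -0.44, 0.80, 0.18 and -0.24. Its mock RNA read 8.68 for the miR-139 pair of arrays and 11.6 for the miR-143 pair, 7.53-fold apart, which was more than any *ATF3* ratio to mock. With the mean of the HCT116 mock RNAs as reference, *ATF3* was 2-fold lower on the miR-139-5p array and 2-fold higher on both miR-143 arrays, so its direction there rests on the mock RNA used.

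*DNAJB9* was the 1 member above 0 on all 8 arrays, in HCT116 at 0.59 and 0.78 (5p and 3p strands of miR-139), 0.07 (miR-143-5p) and 0.83 (array labelled miR-143-3p). In PANC-1 it was at 1.11 (miR-30c-5p), 0.88 (miR-30a-5p), 1.59 (miR-30c-2-3p) and 0.79 (miR-30a-3p). No member was below 0 on all 8. Of the 17404 genes detected on all 8 arrays, 3.62% were above 0 on all 8. *DNAJB9* also stayed above 0 on all 8 arrays under the 6 alternative settings, and its mock RNAs differed by 0.75 in HCT116 and 0.13 in PANC-1. As it has 1 probe and was detected throughout, the median over probes and the dropped filter could not change its ratio.

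Several members stayed well within 2-fold of mock on all arrays at the settings used here. *EDEM1*, which takes part in clearing misfolded glycoproteins, lay between -0.04 and 0.26, *SEL1L* between -0.42 and 0.48, *ERN1* between -0.17 and 0.44 and *HSP90B1* (GRP94) between -0.44 and 0.30. *CEBPB* lay between -0.53 and 0.45, and *STC2*, a secreted glycoprotein, between -0.53 and 0.46. *STC2* and *EDEM1* are dim, and the added offset of 50 draws the ratio of a dim gene toward 0. The scanner's ratio put *STC2* at -1.73 after miR-139-3p and 1.09 after miR-30a-3p, and at -1.14 in the cells labelled miR-143-3p. It put *EDEM1* at 1.02 with miR-30c-2-3p. Where detected, *VLDLR* and *SLC1A4* lay between -0.08 and 0.12.

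A wider list of 71 pathway genes, also listed by function with earlier results known, was read on the same arrays. On the miR-139-5p array and both miR-30 guide strand arrays, 0 of them were 2-fold from mock. Of all detected genes, 0.201% (miR-139-5p), 0.445% (miR-30c-5p) and 0.263% (miR-30a-5p) were 2-fold lower, and 0.0587%, 0.747% and 0.306% were higher. With shares this small, a count of 0 in a list of this size says little about the pathway genes. On the miR-139-3p array 4 of 68 were lower (5.88%, beside 2.82% of all detected genes). The lowest was *PYCR1*, an enzyme of proline synthesis, at -1.94, followed by the tRNA synthetase gene *AARS* (-1.23), the translation repressor gene *EIF4EBP1* (-1.14) and the chaperone gene *CANX* (-1.14). On the miR-143-5p array 3 of 68 were lower (4.41%, beside 1% of all), the disulfide isomerases *PDIA3* (-1.48) and *PDIA6* (-1.11) and the translocon-associated *SSR1* (-1.10). Another disulfide isomerase gene, *P4HB*, was at -0.15 there. On the array labelled miR-143-3p 2 of 68 were lower (2.94%, beside 0.925% of all), *ALDH18A1*, of proline synthesis, at -1.26 and the tRNA exporter *XPOT* at -1.20. On the miR-30a-3p array 1 of 69 was lower (1.45%, beside 1.1% of all), the glutamine transporter *SLC38A1* at -1.20.

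On the miR-30c-2-3p array 9 of 69 pathway genes were 2-fold lower (13.0%, beside 4.14% of all detected genes) and 2 were higher (2.90%, beside 1.71%). The other ATF4 pathway genes of this wider list, not counting the tRNA synthetases, had a median of -0.58. Of these, 15 of 18 detected were below 0 and 6 at least 2-fold lower. The tRNA synthetase genes had a median of -0.27, with 9 of 12 below 0 and 2 at least 2-fold lower. *PYCR1* was again the lowest, at -2.28, and *DDIT4*, an inhibitor of mTORC1, was at -2.17. The methionyl-tRNA synthetase gene *MARS* was at -1.55 and *GDF15*, a secreted stress cytokine, at -1.45. In contrast, the stress kinases and sensors had 7 of 9 above 0 and the other ER folding and degradation genes 21 of 30. Of all detected genes on the miR-30c-2-3p array, 47.3% lay below 0. The higher genes were the sensor *ATF6* at 1.11 and the ER membrane protein gene *WFS1* at 1.09, while *SSR2*, a translocon-associated subunit, was at -2.23. Of these pathway genes, those that were neither the lowest nor the highest of their array were named after their values were seen.

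The lines were also compared in the mock state, with the 2 mock RNAs of each line as samples (quantile-normalised Cy3, limma with Benjamini-Hochberg adjustment). Nothing says that the mock RNAs came from separate cultures, so the p-values measure only the spread between these RNAs. The lines lay in different columns of 1 slide, so line and slide position cannot be told apart. Of 38 members tested, 19 were higher in HCT116 (22.5% of all genes tested), 3 were higher in PANC-1 (20.8%) and 16 did not pass. Without either PANC-1 mock RNA, 0 members passed as higher in HCT116, and 1 as higher in PANC-1. *NUPR1* differed most, with a log2 level of 6.39 and 6.59 in the HCT116 mock RNAs and 9.65 and 9.72 in those of PANC-1. It was 9.14-fold higher in PANC-1 (log2 difference, HCT116 minus PANC-1, -3.19 ± 0.09 SE, limma adjusted p = 0.00108). *PSPH* (-0.58, limma adjusted p = 0.0495) and *CHAC1* (-0.42, limma adjusted p = 0.0451) were also higher in PANC-1.

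Among the members that passed, the largest differences toward HCT116 were in *HERPUD1*, *SLC38A2* and *SLC7A11*. *HERPUD1* had a mean level of 11.1 in HCT116 and 9.76 in PANC-1 (difference 1.37 ± 0.12 SE, limma adjusted p = 0.00492). *SLC38A2* differed by 1.28 ± 0.18 (limma adjusted p = 0.012) and *SLC7A11* by 0.92 ± 0.16 (limma adjusted p = 0.0194). In each of these genes both HCT116 mock RNAs lay above both PANC-1 mock RNAs. *ATF4* was higher in HCT116 by 0.65 (limma adjusted p = 0.041), *XBP1* by 0.81 (limma adjusted p = 0.00971) and *HSPA5* by 0.26 (limma adjusted p = 0.0294). *ASNS* (0.11, limma adjusted p = 0.76) and *DDIT3* (-0.79, limma adjusted p = 0.151) did not pass. *ATF3* had a larger difference, 2.07 ± 1.11, and did not pass (limma adjusted p = 0.213).

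**Figure D4:**
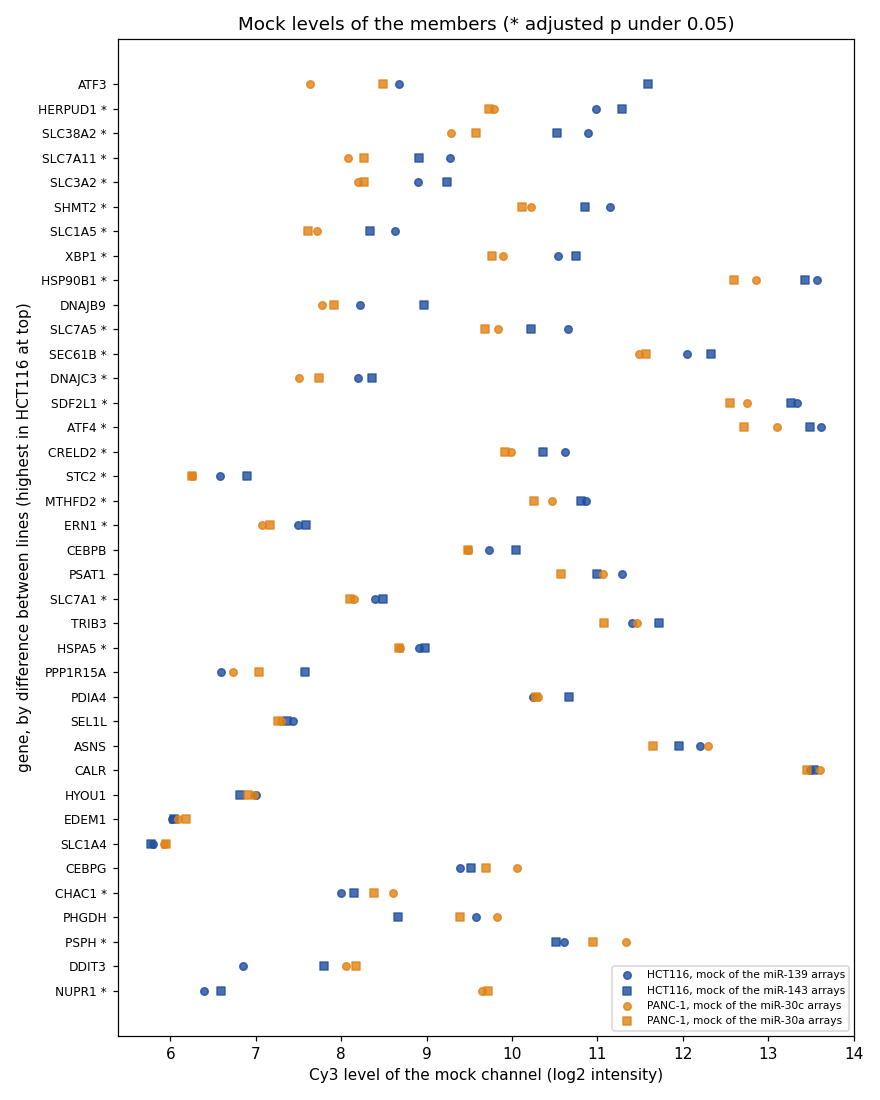
Quantile-normalised Cy3 level (log2 intensity) of 38 members in the mock RNAs of HCT116 (blue) and PANC-1 (orange), circles and squares standing for the 2 mock RNAs of a line and asterisks for an adjusted p under 0.05; genes are ordered by the difference between lines, and levels are not comparable between genes. *NUPR1* lies lowest in HCT116 relative to PANC-1, and the blue *ATF3* symbols stand 2.91 apart.

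The line labels were checked on marker genes. The epithelial markers *EPCAM*, *CDH1* and *CDX2* were higher in HCT116 by 4.31, 2.92 and 1.22 (log2), and *CDX1* differed by -0.07. The mesenchymal-type markers *VIM*, *ZEB1* and *CDH2* were higher in PANC-1 (HCT116 minus PANC-1, -8.63, -2.45 and -1.49). *CDH17* and *FN1* were not well above background in the mock cells of either line, and the epithelial marker *LGALS4* was not so in HCT116 but was in PANC-1, where it was higher (HCT116 minus PANC-1, -0.35), opposite to *EPCAM*, *CDH1* and *CDX2*.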

How the data were processed

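Per the labels, mock RNA was labelled with Cy3 and the RNA of miRNA-transfected cells with Cy5. The authors' deposited scanner files hold spot intensity and background for both channels, and their log10 ratio (Cy5 over Cy3), which the deposited series table repeats (largest difference 0). How that software background-corrected and normalized its ratio could change small ratios, so the intensities were used: mean signals were corrected with normexp (offset 50), control and outlier spots were left out, and arrays were normalized by loess (limma 3.58.1, R 4.3.3). Spots of a probe were averaged, and the probe with the highest mean signal stood for its gene name (31 members had 1 probe, 8 had several). Channel levels were scaled between arrays (Aquantile). Probe positions are hg19, as in the files. The mock channels of the 2 arrays of a precursor differed by at least 2-fold at 0 to 6 genes, against 34 to 205 between precursors, and were averaged to 1 mock RNA. The fit was tested on simulated data in which every gene had the same spread. The planted differences were larger than most member differences between the lines, so this test does not gauge the member calls. The number of arrays limits the precision.

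The members and lists were chosen with earlier results of these data known. On each array, the 3 lowest and 3 highest members at least 2-fold from mock were named, with *ATF4*, *DDIT3*, *ASNS*, *XBP1* and *HSPA5* throughout. Other members were described by role. Alternatives were no background correction, the scanner's ratio, centring each array on its median, the median over probes, the mean of the line's mock RNAs, and no filter on dim probes.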

Additional observations from a re-analysis of the deposited data

How the results depend on the processing

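Of the 23 member values at least 2-fold from mock, 13 were so under all 6 alternative settings, and none changed sign. For these values, dropping the filter on dim probes could change nothing. The median over probes could do so only for members with several probes. The numbers of members past 2-fold depended on the setting as follows. With the scanner's ratio, the lower members were 1 on the miR-139-5p array (*NUPR1*, beside 1.77% of all detected genes) and 8 on the miR-139-3p array (beside 9.82%). On the array labelled miR-143-3p 2 were lower (beside 4.98%), and on the miR-30c-2-3p array 5 were higher (beside 9.21%). With no background correction, 1 was lower on the miR-139-5p array (beside 0.382% of all). With centring on the median, 1 was lower on the miR-143-5p array (beside 0.512% of all). The higher members were then 6 after miR-30c-5p (beside 3.98%) and 2 after miR-30a-5p (beside 1.41%). On the miR-30a-3p array 16 were higher (beside 8.82%) and 0 lower (beside 0.208%). Under that centring the median of all detected genes on these 3 arrays was 0.21, 0.15 and 0.30. With the median over probes, 1 was higher on the miR-30c-2-3p array (beside 1.34% of all) and 1 on the miR-30a-3p array (beside 0.267%). With the mean of the mock RNAs, 1 was lower with miR-139-5p (beside 0.509% of all) and 1 was higher with miR-30c-5p (beside 0.584%). That setting put 2 higher with miR-143-5p (beside 0.79%), 2 on the array labelled miR-143-3p (beside 1.31%) and 2 with miR-30a-5p (beside 0.511%). In the mock comparison, all 4 channels as samples gave 7 members higher in PANC-1, and no filter on dim probes gave 11 higher in HCT116. Leaving out 1 mock RNA at a time, where the lone sample is assumed to vary like the other line, gave 0 to 21 members higher in HCT116 and 1 to 2 higher in PANC-1. The cause of these differences was not tested. The remaining 90 counts stayed within 1.5 times the value reported. No paired analysis was possible because each miRNA had 1 array and the labels give no replicate numbers that pair mock RNAs. Dim members such as *SLC7A1* in the miR-139-3p channel (-3.07 by the scanner's ratio, -1.96 here) are limited by signal over background.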
